A study of Mus musculus with 9 samples.

Results

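Integrins are cell surface receptors made of 1 alpha and 1 beta chain that bind extracellular matrix or other cells. Inside the cell their beta chain tails are held by talin and kindlin, which recruit vinculin, paxillin, focal adhesion kinase, tensins and the complex of integrin-linked kinase, PINCH and parvin, and so tie the receptor to actin. In smooth muscle these focal adhesions carry the force of contraction from the actin filaments to the matrix, while a separate set of chains, among them the beta 2 partners, belongs to leukocytes. The 39 genes described here, taken by symbol from 21853 protein-coding genes of the mouse GENCODE annotation, are 26 integrin chains and 13 adaptor and kinase genes. They were sorted by the ligand or cell type each chain is known for into 4 collagen-binding, 3 laminin-binding and 4 fibronectin- or RGD-binding alpha chains, the alpha chains 4 and 9, 7 leukocyte chains, 6 other beta chains and the 13 adaptors.

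The series holds 9 samples of primary oviductal muscle cells from WT mice aged 8 to 12 weeks on Day 2 of pregnancy, 3 with an antibody to H3K27ac, 3 with one to H3K4me1 and 3 with control IgG. In ChIC-seq an antibody carries micrococcal nuclease to a histone mark, and the DNA cut loose there is sequenced; 50000 cells went into each library. H3K27ac marks active promoters and enhancers, and H3K4me1 is found at enhancers and on the flanks of promoters. Cells came from enzyme-digested oviduct that was filtered, plated for hours and washed, and the labels describe no sort, so other cells of the oviduct wall may be present. Each of the 6 replicate peak lists was called against 1 IgG library and each of 2 pooled lists against all 3; the IgG libraries on their own were not analysed here. No label says whether the 3 replicates of a mark came from separate mice, so a p-value measures only the spread between these lists, which may be technical.

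The replicate lists rested on 40551842 to 42040809 fragments for H3K27ac and 41891318 to 78891920 for H3K4me1, and covered 91.0 to 145 Mb and 130 to 138 Mb of the genome. The H3K27ac replicate 1 list was the longest, at 152889 peaks, against 99035 and 93684 in replicates 2 and 3. Of 8 smooth muscle marker genes, 3 (Acta2, Des and Smtn) had promoter peaks in all 6 replicate lists, and 1, Myh11 (smooth muscle myosin heavy chain), had H3K27ac there in 0 of 3 replicates, although the pooled H3K27ac list held a peak. Of 8 stromal fibroblast markers 4 had peaks in all 6 lists, and 0 of 10 leukocyte, 0 of 8 endothelial and 0 of 8 epithelial markers did, beside 24.3% of all genes. For H3K27ac alone, all 3 replicates had promoter peaks at 3 of 8 smooth muscle markers, beside 45.9% of all genes. They did at 6 of 8 fibroblast, 1 of 8 endothelial and 0 of 8 epithelial markers. Of the 10 leukocyte markers, 3 (Ptprc, Cd68 and Fcer1g) had an H3K27ac promoter peak in all 3 replicates, beside 45.9% of all genes, and 4 (Csf1r, Cd3e, Cd79a and Lyz2) had one in 0, beside 37.5%.

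Promoter sequence is shown for 6 members that differ in their marks: Itgb1 and Itgav, with peaks in all 6 replicate lists, Vcl, with H3K27ac in 3 and H3K4me1 in 0 replicates, Itga11, with H3K4me1 in 3 and H3K27ac in 0, and the leukocyte chains Itgam and Itgax, with neither in any list. Each run is the RefSeq promoter on GRCm38.p6, 250 bases before to 50 after the start, written 5′ to 3′ on the strand of the gene. Peaks were counted within 1 kb of any start and need not cover these bases. In replicates 1 to 3, H3K4me1 covered 0%, 0% and 26.7% of the Itgb1 bases and 71%, 0% and 0% of the Itgav bases. H3K27ac covered 100% of both in each replicate. Capitals mark GC boxes, the letters GGGCGG on either strand, overlapping matches included.
Itgb1 (chr8:128685404-128685703, plus strand): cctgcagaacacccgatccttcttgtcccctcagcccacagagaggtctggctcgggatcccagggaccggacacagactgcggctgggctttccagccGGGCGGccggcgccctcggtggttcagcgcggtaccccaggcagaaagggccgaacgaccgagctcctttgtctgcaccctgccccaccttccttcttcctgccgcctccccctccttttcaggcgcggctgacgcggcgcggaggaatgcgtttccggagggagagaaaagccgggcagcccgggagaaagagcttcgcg
Itgav (chr2:83724147-83724446, plus strand): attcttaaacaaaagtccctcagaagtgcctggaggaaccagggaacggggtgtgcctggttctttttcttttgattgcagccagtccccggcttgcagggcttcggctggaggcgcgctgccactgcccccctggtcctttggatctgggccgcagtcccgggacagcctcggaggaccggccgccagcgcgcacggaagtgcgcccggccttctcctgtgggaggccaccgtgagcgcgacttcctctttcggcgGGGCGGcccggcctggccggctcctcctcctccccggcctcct
Vcl (chr14:20929148-20929447, plus strand): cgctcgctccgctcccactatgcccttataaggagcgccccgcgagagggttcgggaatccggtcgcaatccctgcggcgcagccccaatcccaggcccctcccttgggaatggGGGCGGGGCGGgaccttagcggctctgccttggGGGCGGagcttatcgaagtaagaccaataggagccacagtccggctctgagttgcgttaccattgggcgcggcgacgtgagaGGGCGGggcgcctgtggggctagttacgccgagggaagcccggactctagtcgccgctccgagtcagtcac
Itga11 (chr9:62677605-62677904, plus strand): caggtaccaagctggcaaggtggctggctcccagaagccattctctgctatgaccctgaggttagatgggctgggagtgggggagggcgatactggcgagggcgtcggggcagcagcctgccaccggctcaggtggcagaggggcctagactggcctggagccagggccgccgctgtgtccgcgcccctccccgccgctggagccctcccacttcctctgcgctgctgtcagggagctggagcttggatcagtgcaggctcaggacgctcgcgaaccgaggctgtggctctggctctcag
Itgam (chr7:128062390-128062689, plus strand): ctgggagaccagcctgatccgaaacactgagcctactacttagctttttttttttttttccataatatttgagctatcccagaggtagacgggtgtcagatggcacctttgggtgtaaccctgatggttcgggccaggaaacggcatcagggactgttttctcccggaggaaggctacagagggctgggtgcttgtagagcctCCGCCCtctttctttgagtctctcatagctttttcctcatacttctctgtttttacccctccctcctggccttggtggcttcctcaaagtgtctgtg
Itgax (chr7:128129300-128129599, plus strand): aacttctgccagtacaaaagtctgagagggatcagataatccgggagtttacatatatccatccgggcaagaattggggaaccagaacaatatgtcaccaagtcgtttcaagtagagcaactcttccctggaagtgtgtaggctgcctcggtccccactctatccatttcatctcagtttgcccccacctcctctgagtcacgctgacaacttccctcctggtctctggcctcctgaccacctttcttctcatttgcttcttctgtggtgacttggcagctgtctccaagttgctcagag
Itgb1 and Itgav held 1 GC box each, Vcl 4, of which 2 overlap, Itgam 1 and the others 0. Vcl also held a CArG box, the site bound by serum response factor in many muscle genes.

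A promoter was called marked where a peak overlapped, by at least 1 base, the window 1 kb either side of any protein-coding start of the gene. By this rule 21 of 39 members had an H3K27ac promoter peak in all 3 replicates, beside 45.9% of all protein-coding genes. H3K4me1 promoter peaks in all 3 replicates were found at 18 members, beside 27.9% of all genes. Peaks in all 6 lists were found at 14 members, beside 24.3% of all genes, and 9 members had none in any of the 6, beside 32.8%. The members were unevenly spread over the roles: 12 of 13 adaptors and 9 of 19 integrin chains outside the leukocyte group had H3K27ac in all 3 replicates, against 0 of 7 leukocyte chains.

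**Figure D1:**
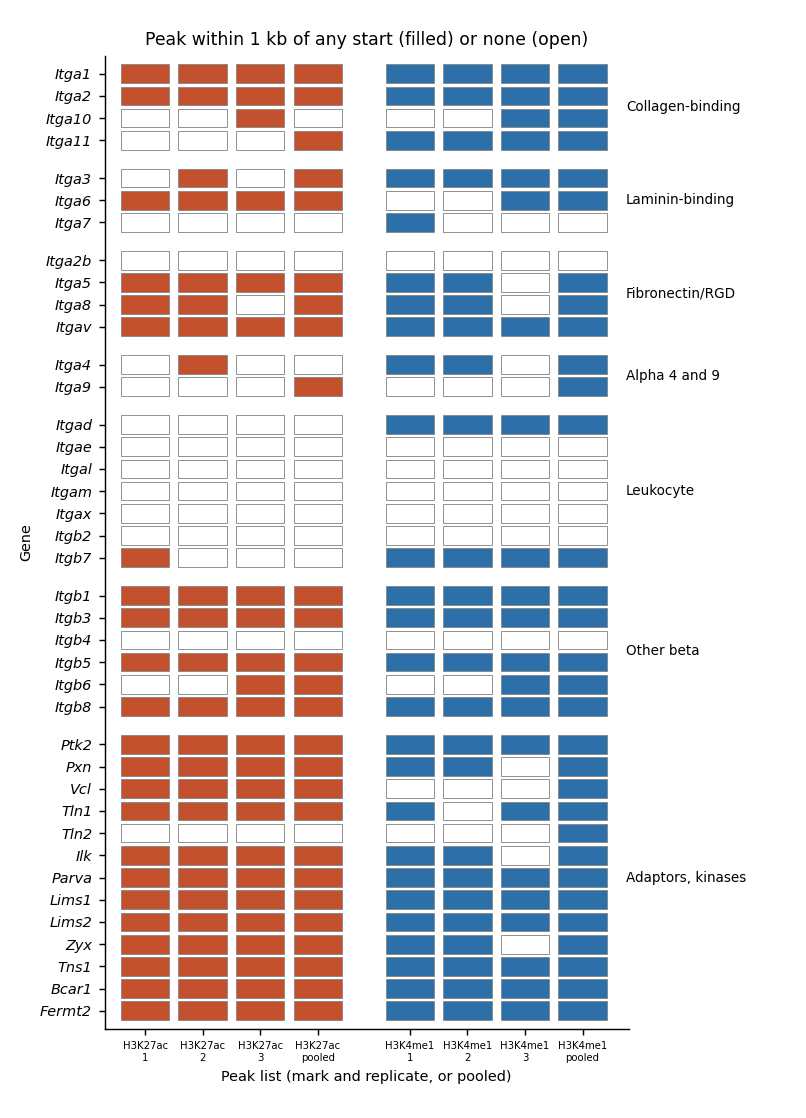
Promoter peaks of the 39 members in 6 replicate and 2 pooled lists, with members in rows by role and lists in columns, H3K27ac in orange and H3K4me1 in blue. A filled box is a peak within 1 kb of any start of the gene; the adaptor rows are filled for H3K27ac in 12 of 13, and the leukocyte rows are open but for Itgad and Itgb7.

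Among the collagen-binding chains, Itga1 and Itga2, the chains of the 2 widespread collagen receptors, had both marks at a promoter in all 6 lists. Itga1 has 1 start, and its promoter window also holds a start of Gm49395. The case of Itga2 rested on both of its starts, which lie 30157 bp apart: the first start was marked by H3K27ac only in replicate 2, and the second by H3K27ac in all 3. Itga11, a fibroblast collagen receptor chain, had H3K4me1 in all 3 replicates and H3K27ac in 0, with H3K4me1 peaks of 429 to 641 bp, although the pooled H3K27ac list had a promoter peak of 569 bp. Itga10, known from cartilage, had each mark in replicate 3 alone among the replicates, and the pooled H3K4me1 list also had a promoter peak, of 1673 bp.

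Of the laminin-binding chains, Itga6 had H3K27ac in all 3 replicates and H3K4me1 in 1, and Itga3 had H3K4me1 in 3 and H3K27ac in 1. Itga7, the laminin receptor chain best known from muscle, had 1 H3K4me1 promoter peak, in replicate 1, and no H3K27ac promoter peak in any list. Of the fibronectin- and RGD-binding chains, Itgav, which pairs with several beta chains, had both marks in all 6 lists. Taking the promoter peak of highest fold in each replicate list, those of H3K27ac spanned 4845 to 11651 bp and those of H3K4me1 1284 to 1676 bp, while in the pooled lists they spanned 12463 and 19366 bp. Itga5, the classic fibronectin receptor chain, had H3K27ac in 3 replicates and H3K4me1 in 2, and Itga8 had each mark in 2. Itga2b, the platelet chain, was without a promoter peak in each of the 8 lists.

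Itga4 and Itga9, which bind fibronectin and other ligands, did not reach 3 replicates with either mark. Itga4 had H3K27ac in 1 and H3K4me1 in 2. Itga9 had none in the 6 replicate lists, yet both pooled lists held a peak at its first start. Of the leukocyte chains, Itgae, Itgal, Itgam, Itgax and Itgb2 had no promoter peak in any of the 8 lists. Itgad had H3K4me1 in all 3 replicates, at a start 49236 bp downstream of its first in all 3, and H3K27ac in 0. Itgb7 had H3K4me1 in 3 and H3K27ac in 1. The leukocyte markers, whose shares are given above, had H3K27ac promoter peaks in all 3 replicates at 3 of 10 genes and in 0 at 4, and the part of leukocytes in these values was not tested.

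The other beta chains were marked in all 6 lists at 4 of 6 genes, beside 24.3% of all genes. Itgb1, the partner of most matrix-binding alpha chains, had 2 or 3 H3K27ac promoter peaks in each replicate list, of which the strongest was 8251 to 17183 bp wide, with a fold over IgG of 2.34 to 2.50 that was at or above that of 98.8% to 99.4% of all peaks in its list. Its strongest H3K4me1 promoter peaks had a fold of 1.82 to 1.98, and the widest spanned 4339, 20960 and 20706 bp. Itgb3 and Itgb5, partners of alpha v, and Itgb8, which activates latent TGF-beta with alpha v, were the other 3. Itgb6, an epithelial chain, had each mark in 1 replicate, and Itgb4, the hemidesmosome chain, had none in any of the 8 lists.

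Of the 13 adaptors and kinases, 7 had both marks in all 6 lists, beside 24.3% of all genes. They were Ptk2 (focal adhesion kinase), Parva (parvin), Lims1 and Lims2 (the PINCH proteins), Tns1 (tensin), Bcar1 (p130Cas) and Fermt2 (kindlin). Pxn (paxillin), Tln1 (talin), Ilk (integrin-linked kinase) and Zyx (zyxin) had H3K27ac in 3 replicates and H3K4me1 in 2. The H3K4me1 of Tln1 lay at later starts: its first start had H3K27ac in 3 replicates and H3K4me1 in 0, as at Vcl. At the first starts of Pxn the numbers were 3 and 1. Vcl, vinculin, had H3K27ac in 3, with 1 peak of 4040 to 9882 bp in each, and H3K4me1 in 0, although the pooled H3K4me1 list had a promoter peak. In the replicates H3K4me1 began 1776, 1776 and 2000 bp past the start, and with a window of 3 kb Vcl had both marks in all 6 lists. The 1 adaptor without a replicate peak was Tln2, the second talin, which had a promoter peak in the pooled H3K4me1 list alone. Starts of Rrp8 and Creb3 lie within 1 kb of starts of Ilk and Tln1, so those promoter peaks cannot be told apart between neighbours.

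Where a gene has several starts, the marks could sit at a start other than the first. Tns1 has 11 starts in 9 separate promoters, where starts within 500 bp of each other count as 1 promoter. Its first promoter had no peak in any of the 8 lists, while those 33098, 87316 and 161406 bp downstream had peaks in all 6 replicate lists. Lims1 was marked in all 6 lists at both of its promoters, 70907 bp apart. Lims2 had none at its first promoter and peaks in all 6 lists at the second, 9035 bp downstream. Bcar1 and Itgb5 had all 6 only at their downstream promoters, 11673 and 62276 bp away, where H3K4me1 was found in 3 replicates, against 2 and 1 at their first. Ptk2 had H3K4me1 in 2 replicates at its first promoter, and all 6 lists only at those 28581 and 180033 bp downstream. Itga2 and Fermt2 were the 2 of the 14 members without all 6 lists at any single promoter: Fermt2 had H3K27ac in 3 and H3K4me1 in 1 replicate at its first, and 2 and 3 at one 52257 bp downstream. With the principal start alone in place of any start, 8 members had peaks in all 6 lists, beside 18.7% of all genes.

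Around the principal start, the 2 marks took different positions. At the start itself a mean of 40.2% of members lay under H3K27ac (range over 3 replicates 35.9% to 48.7%) and 10.3% under H3K4me1 (7.69% to 15.4%). At 2 kb downstream the shares were 39.3% and 38.5%. The ranges of the marks did not overlap at the start and overlapped at 2 kb. Over all protein-coding genes the shares were 38.0% and 13.1% at the start and 17.4% and 19.6% at 2 kb. For the adaptors they were 61.5% and 5.13% at the start and 59.0% and 48.7% at 2 kb. Of the 7 leukocyte chains, 4.76% (1 gene in 1 replicate) lay under either mark at the start.

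**Figure D2:**
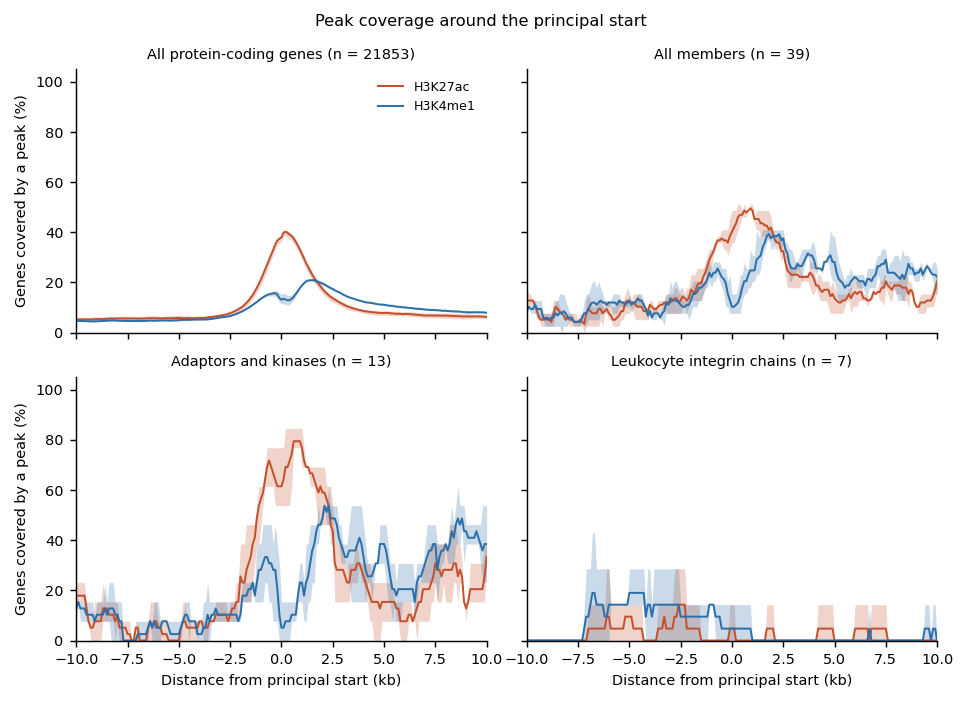
Percent of genes covered by a peak (y axis) against distance from the principal start in kb (x axis), for all protein-coding genes, all members, adaptors and leukocyte chains, with H3K27ac in orange and H3K4me1 in blue; lines are means and bands the range of 3 replicates. H3K4me1 dips at the start of all genes and of members, to 13.1% and 10.3%, and the leukocyte panel stays near 0 for both marks there.

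Over longer stretches, the measure was the percent of a gene's body plus 10 kb either side that peaks covered. Many windows also hold other genes, whose peaks were counted too. Itga2b, without a promoter peak in any list, had 8.24% of its window under H3K27ac, and that window holds Fam171a2 and Gpatch8. Coverage was compared between 3 H3K27ac and 3 H3K4me1 lists by a two-sided exact permutation test over its 20 assignments, whose smallest possible p is 0.1. No gene could pass 0.05, so a member was counted only where the values of the marks did not overlap. The median member had 8.24% of its window under H3K27ac and 10.7% under H3K4me1, against 4.60% and 3.66% for all protein-coding genes, and 26 and 29 of 39 members lay above these medians. By role, the median coverage by H3K27ac and H3K4me1 was 5.29% and 7.61% for collagen-binding, 2.50% and 6.23% for laminin-binding, and 15.3% and 12.7% for fibronectin- and RGD-binding chains. It was 4.76% and 6.91% for the alpha chains 4 and 9, 13.5% and 23.2% for the other beta chains and 18.6% and 20.1% for the adaptors. The leukocyte chains stood lowest, at 1.28% and 1.58%, with 0 and 2 of 7 above the medians of all genes. In the 3 H3K27ac replicates the leukocyte median was 0.670%, 2.77% and 1.2%, under the lowest adaptor median of 16.2% but in replicate 2 above the laminin-binding median of 1.46%, while that of the 10 leukocyte marker genes was 9.75%, 6.63% and 4.60%.

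**Figure D3:**
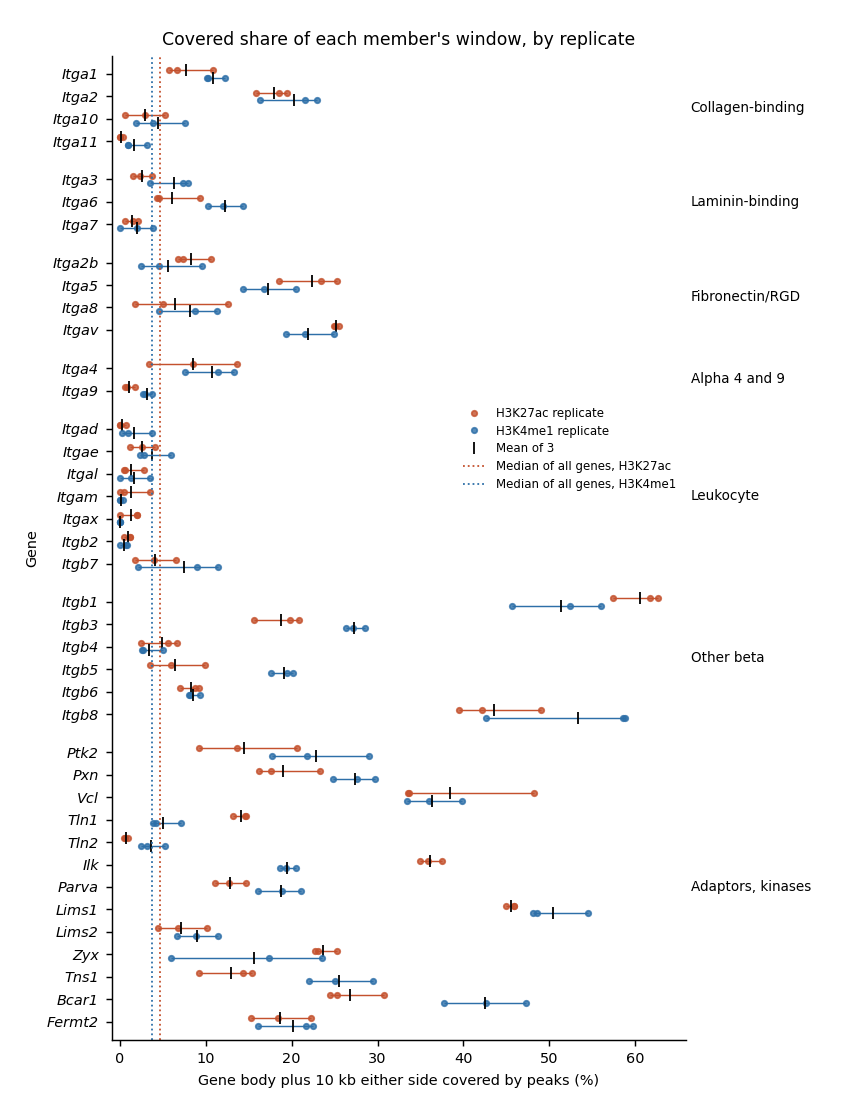
Percent of gene body plus 10 kb either side covered by peaks (x axis) for each member (y axis, by role); points are the 3 replicates of H3K27ac (orange) and H3K4me1 (blue), bars across them the range, black ticks the mean, and dotted lines the medians of all genes. Itgb1, Itgb8 and Lims1 lie farthest right for both marks, and the means of 5 of the 7 leukocyte chains lie left of both dotted lines, those of Itgae and Itgb7 right of the H3K4me1 line.

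The same 3 members had the highest coverage by both marks. Itgb1 was covered over 61.8%, 57.4% and 62.7% of its window by H3K27ac and over 56.0%, 45.7% and 52.4% by H3K4me1. Itgb8 was covered over 49.0%, 42.2% and 39.5% by H3K27ac and over 42.7%, 58.6% and 58.9% by H3K4me1. Lims1 was covered over 45.9%, 45.9% and 45.0% by H3K27ac and over 54.5%, 48.1% and 48.6% by H3K4me1. Among all protein-coding genes, the percentile rank of the mean for H3K27ac and H3K4me1 was 99.8 and 99.7 at Itgb1, 99.1 and 99.8 at Itgb8, and 99.2 and 99.6 at Lims1. The lowest H3K27ac means were those of Itga11, at 0.128% ± 0.222 (SD, n = 3), Itgad, at 0.223% ± 0.387, and Tln2, at 0.644% ± 0.26. The lowest H3K4me1 means were 0% for Itgax, 0.119% ± 0.206 for Itgam and 0.483% ± 0.422 for Itgb2.

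Coverage was higher in every H3K27ac than in every H3K4me1 list at 4 members, Itgav, Itgb1, Tln1 and Ilk, beside 15.7% of all genes. Ilk had 37.5%, 34.9% and 35.9% under H3K27ac and 20.5%, 19.3% and 18.6% under H3K4me1, a ratio of means of 1.85 (exact permutation p = 0.1). Tln1 had 14.5%, 13.1% and 14.7% against 4.18%, 3.80% and 7.12%, a ratio of 2.80 (exact permutation p = 0.1). Both groups stood well apart, and both windows hold other genes: Rrp8, Taf10 and Tpp1 for Ilk, and Tpm2, Creb3 and Gba2 for Tln1. The windows of Itgb1 and Itgav hold Ccdc7a and Fam171b. Among the members of the next paragraphs, those of Itga11, Itgb5, Pxn and Tns1 hold other genes as well. At Itgb1 the closest values were 57.4% and 56.0%, and the ratio was 1.18. Itgav had 25.5%, 24.9% and 25.1% against 21.5%, 19.3% and 24.9%, so its groups were parted by less than the rounding of these values. Over the gene body alone, and with the 50000 peaks of highest pileup per list, the groups of Itgb1 and Itgav overlapped, and with peaks of −log10 p of at least 1.3 alone, the means of both turned the other way, while Ilk and Tln1 kept the call under these 3 settings.

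Coverage was higher in every H3K4me1 than in every H3K27ac list at 11 members, beside 11.0% of all genes: Itga11, Itga6, Itga9, Itgb3, Itgb5, Pxn, Tln2, Parva, Lims1, Tns1 and Bcar1. Among the integrin chains, Itgb5 had 9.85%, 5.97% and 3.53% under H3K27ac and 19.5%, 20.1% and 17.6% under H3K4me1, 2.95 times higher in the mean (exact permutation p = 0.1). Itgb3 had 19.8%, 20.9% and 15.6% against 26.3%, 27.1% and 28.5%, and Itga6 had 9.34%, 4.34% and 4.57% against 12.0%, 10.2% and 14.3%. Every H3K4me1 value of these 3 genes lay above every H3K27ac value, by the narrowest margin at Itga6. Itga9 had 0.746%, 0.597% and 1.78% against 2.67%, 3.66% and 2.92%, and Itga11 had 0%, 0% and 0.385% against 0.901%, 0.933% and 3.14%. With peaks of −log10 p of at least 1.3 alone the Itga11 difference was 0 and its call was lost. By mean coverage Itga9 ranked at percentile 29.1 of all genes for H3K27ac and 46.8 for H3K4me1, and Itga11 at 17.2 and 37.2.

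Among the adaptors, Bcar1 had 25.3%, 30.7% and 24.5% under H3K27ac and 47.3%, 42.6% and 37.8% under H3K4me1, 1.59 times higher in the mean. Tns1 had 14.3%, 15.4% and 9.17% against 29.5%, 25.1% and 22.0%, 1.97 times higher (exact permutation p = 0.1 for both genes). Both calls held over the gene body alone, and that of Bcar1 was lost with peaks of −log10 p of at least 1.3 alone. Tln2 had 0.554%, 0.937% and 0.442% against 5.24%, 3.17% and 2.46%, so the second talin was near the median of all genes in H3K4me1 (percentile 49.8) and low in H3K27ac (percentile 24.7), where Tln1 was covered over at least 13.1%. Pxn had 17.6%, 23.3% and 16.2% against 29.7%, 27.6% and 24.8%. Parva had 14.7%, 11.1% and 12.7% against 18.9%, 16.1% and 21.1%. The groups of both lay closer together than those of Bcar1 and Tns1, and overlapped with 50 kb either side at Pxn and with −log10 p of at least 1.3 at Parva. At Lims1 the mean difference was −4.84 percentage points, and it turned to 2.92 with 50 kb either side, while with −log10 p of at least 1.3 the marks overlapped.

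The other 24 members had overlapping values. At Vcl, the H3K27ac alone seen within 1 kb of the start did not extend to the gene: its window was covered over 48.2%, 33.7% and 33.5% by H3K27ac and over 39.8%, 36.0% and 33.4% by H3K4me1 (exact permutation p = 0.8). Ptk2 had 20.6%, 13.6% and 9.21% against 29.0%, 21.8% and 17.7%, and Zyx 25.3%, 23.1% and 22.7% against 23.5%, 17.4% and 5.98%. In each of these 3 genes the ranges of the marks overlapped.

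**Figure D4:**
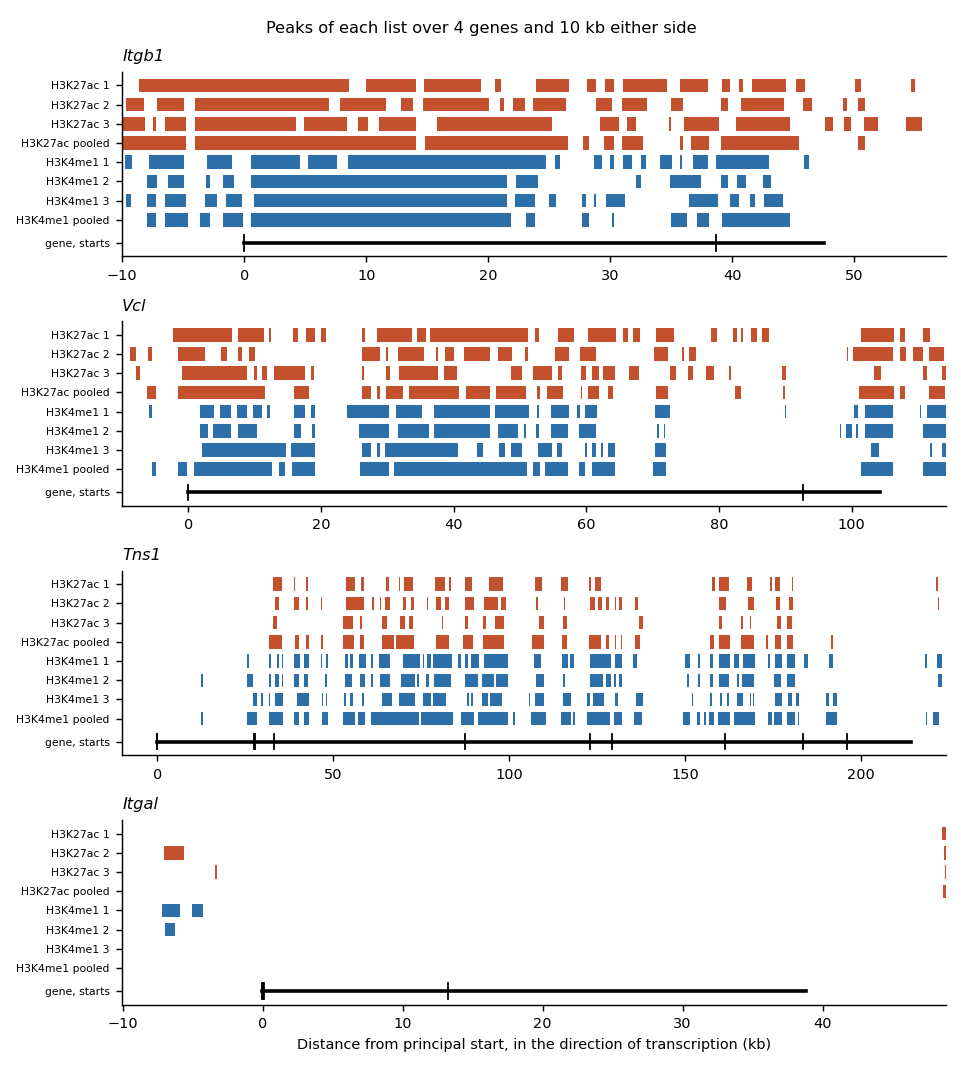
Peaks of the 8 lists (rows, H3K27ac orange, H3K4me1 blue) along Itgb1, Vcl, Tns1 and Itgal and 10 kb either side, against distance from the principal start in kb in the direction of transcription; the black bar is the gene and its ticks the starts. Itgb1 and Vcl are covered over long stretches by both marks, Tns1 has peaks along its downstream part and none within 1 kb of its first start, and Itgal has none within the gene in any list.

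Regions where both marks were present in at least 2 of 3 replicates each were taken as double-marked, the combination known from active enhancers. The windows of the 39 members held 255 double-marked distal regions, farther than 1 kb from any protein-coding start, 202 of them within introns and 30 in the flanks. Of these, 124 lay at 10 of 13 adaptors, 75 at the 6 other beta chains, 21 at the 4 fibronectin- and RGD-binding chains, 20 at 2 of 4 collagen-binding chains, 7 at the alpha chains 4 and 9, 6 at Itga6 and 2 at the 7 leukocyte chains. No minimum width was set, so short overlaps of the marks count. Itga2b and Itgb2, with 1 region each, held 32 and 131 bp of double-marked sequence, and Itga9, with 3, held 279 bp. In all, 27 of 39 members (69.2%) held at least 1, against 39% of all protein-coding genes, whose windows are shorter, with a median of 37380 bp against 82477 bp. Windows differ in length, and per 100 kb the count was 28.1 at Itgb1, 24.8 at Itgb8 and 18.5 at Vcl, against 1.8 at Itgb2 and 1.3 at Itgae, with a median of 3.91 over members and 0 over all genes. Of all genes, 99.9%, 99.8% and 99.1% had fewer per 100 kb than Itgb1, Itgb8 and Vcl. Itgb1 held 28422 bp of double-marked sequence, 42.1% of its window, and Lims1 47059 bp, 38.8%.

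The widest distal region of the adaptors was an intron of Lims1 at chr10:58365730-58375175, 9446 bp wide and covered over 45.8%, 95.5% and 89.1% by the H3K27ac and over 100%, 100% and 81.6% by the H3K4me1 replicates. That of the other beta chains was 7094 bp wide in Itgb8, at chr12:119230683-119237776, 4573 bp from the start at its midpoint, and covered over 83.1% to 100% in every list. In Itgav an intron held 5162 bp at chr2:83738023-83743184. The remaining groups had narrower ones, of 1941 bp at Itga2 (chr13:114895070-114897010), 872 bp at Itga4 (chr2:79261203-79262074), 600 bp at Itga6 (chr2:71788148-71788747) and 400 bp upstream of Itgae (chr11:73085344-73085743). All but the last lie within their gene.

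The central 300 bases of the 170 distal regions at least that wide were searched for the AP-1 letters TGANTCA, which were found in 20 (11.8%), against 13.8% of 26951 such regions over the genome. The TEAD letters GGAATG were in 18.8% against 16.8%, the GC box in 4.71% against 3.30%, and the CArG box in 1.18% against 1.93%. Both strands were searched, and matches of different motifs were counted separately whether or not they overlapped. Of the Itga5 regions searched, the one with the most AP-1 matches was chosen to be shown, and the others held 1 or 0. It is 484 bp wide and lies in the flank, at −3840 bp from the start. Its centre held 2 AP-1 matches and is shown on the plus strand of GRCm38, with AP-1 letters in capitals.
Itga5 (chr15:103370453-103370752): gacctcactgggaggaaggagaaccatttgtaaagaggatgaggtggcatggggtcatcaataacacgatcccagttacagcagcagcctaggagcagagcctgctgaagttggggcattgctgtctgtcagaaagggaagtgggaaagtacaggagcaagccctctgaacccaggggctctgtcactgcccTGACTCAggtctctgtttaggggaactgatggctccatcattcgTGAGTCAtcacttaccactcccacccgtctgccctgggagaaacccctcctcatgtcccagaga

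RefSeq promoters within 1 kb of a GENCODE start were matched for 26 of 39 members and 16315 genes in all; Itga6, Itga7, Itgad, Itgae, Itgal, Itgb2, Itgb3, Itgb4, Lims2, Parva, Ptk2, Pxn and Tln2 were not matched. The ratio of CpG observed over expected, which is high in CpG island promoters, had a median of 0.599 over members and 0.606 over all promoters. It was 0.708 for the 15 matched members with H3K27ac in all 3 replicates, beside 0.795 for all such promoters, and 0.316 for the 5 with H3K27ac in 0, beside 0.218. The sequence is the RefSeq one nearest the principal start, which at Lims1 and Itga9 lay at another start, 70826 and 105002 bp away. It is also not always at a marked start: at Tns1 H3K27ac covered 0% of these bases in all 3 replicates, and at Itga2 8% in 1 replicate and 0% in the others, and at Itga11 all 6 lists covered 0%, since its H3K4me1 peaks lie downstream of the printed bases. The values were 0.902 at Vcl, 0.798 at Itgb1, 0.708 at Itgav, 0.465 at Itga11, 0.316 at Itgam and 0.275 at Itgax. A GC box was found in 14 members (53.8%, against 48.7% of all promoters), in 11 of the 15 with H3K27ac in 3 replicates (73.3%, against 67.2% of such promoters) and in 1 of the 5 with H3K27ac in 0 (20%, against 23.7%). AP-1 letters were found in 3 (11.5%, against 6.97%), TEAD letters in 3 (11.5%, against 13.1%) and a CArG box in 2, Vcl and Fermt2 (7.69%, against 1.51%). These shares are descriptions, and a match is not a bound site.

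**Figure D5:**
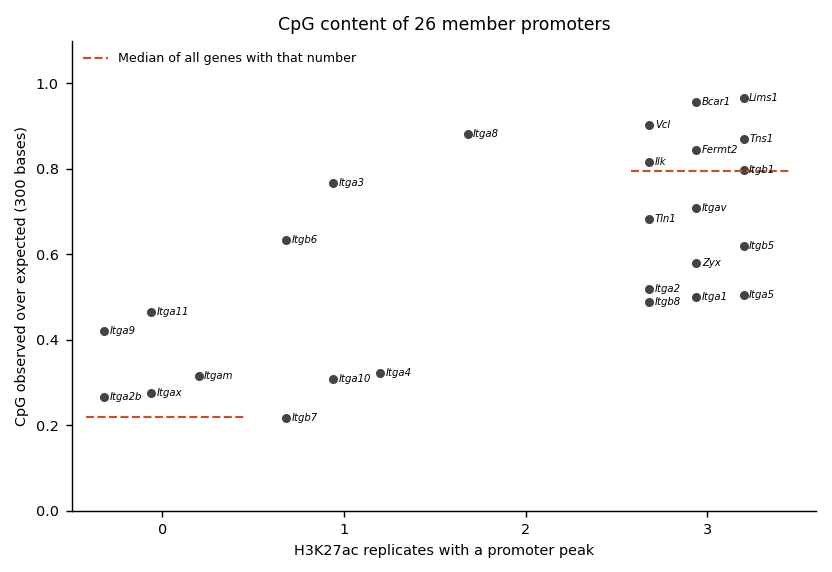
CpG observed over expected in 300 promoter bases (y axis) against the number of H3K27ac replicates with a promoter peak (x axis, points spread sideways within each number) for 26 members; dashed lines are the medians of all genes with 0 and 3 replicates, 0.218 and 0.795. The 5 members at 0 lie under 0.5, and Bcar1 and Lims1 lie highest at 3, at 0.956 and 0.966.

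Beyond the 39 genes, the ligands and other parts of the adhesion pathway were counted by the same rules. Of 23 integrin ligand genes, 15 had H3K27ac promoter peaks in all 3 replicates, 10 had H3K4me1, 9 had both and 2 had neither in any replicate list, beside the 45.9%, 27.9%, 24.3% and 32.8% of all genes given above. Among the 9 were the fibrillar collagen genes Col1a1, Col1a2 and Col3a1, the laminin chain genes Lama2, Lama4 and Lamb1, and Fbn1 and Postn (fibrillin and periostin), and the 2 were Vtn (vitronectin) and Lamc3. Of 25 other adhesion genes, 21 had H3K27ac in all 3, 13 had both marks in all 6 lists and 0 had neither, read against the same shares. Among these 13 were Actn4, Git1, Itgb1bp1, Lpp, Nedd9, Pdlim7, Ptpn12, Rsu1, Sorbs3, Src, Tgfb1i1 and Tns2. Coverage was higher in every H3K27ac list at 7 and in every H3K4me1 list at 1 of these 25 genes, and at 2 and 8 of the 23 ligand genes, beside the 15.7% and 11.0% of all genes given above.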

How the data were processed

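The authors trimmed reads with cutadapt, aligned them with Bowtie2 to GRCm38.p5 and called broad peaks with MACS, per the labels and, for MACS 2.2.7.1, per the file headers, from paired fragments with p cutoffs of 0.05 for strong and 0.1 for weak regions and the larger library scaled to the smaller. The IgG library numbered 1 was the control of 1 list (H3K27ac replicate 1), that numbered 2 of 3 lists (H3K4me1 replicates 1 and 2 and H3K27ac replicate 2), and that numbered 3 of both lists with that number. The deposited lists hold, per peak, a pileup signal in fragments, a fold ratio over IgG and a −log10 p-value. Of the replicate peaks 11.1% to 19.0% had a −log10 p of at least 1.3, so most were weak. Control libraries held 3110985 to 3713369 fragments. Counts per region were not used here, so no interval for counting error can be given.

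From the lists, promoter overlap (at least 1 base within 1 kb of any of 54361 starts, GENCODE mouse release 21) and covered length were computed over 21 chromosomes in Python 3.11.15 with numpy 2.4.6 and pandas 2.3.3. The interval code was tested on simulated data. The coordinates fit the GRCm38.p6 genome, with 0 peaks past a chromosome end, and 1000 of 1000 RefSeq promoters compared held the same bases. The principal start is that of the best APPRIS isoform. Members and gene lists were chosen with earlier results of these data known, so no list was tested as a whole. Genes named with values were all members by promoter pattern, by the 3 highest and lowest coverage means and by non-overlap of the marks, the widest distal region per role, and, of the other lists, genes with peaks in all 6 lists or none. Ptprc, Cd68, Fcer1g, Csf1r, Cd3e, Cd79a, Lyz2 and Myh11 were named after their values were seen. Alternatives changed the promoter window, the starts, the overlap, the peak cutoff, the flank, the pairing and the replicates used. Some genes of the other lists and some sequences are not reported here.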

Additional observations from a re-analysis of the deposited data

How the results depend on the processing

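Of 70 counts of members under alternative settings, 58 stayed within 1.5 times their value. Members with H3K4me1 promoter peaks in all 3 replicates (18) became 7 with windows of 250 bp, 11 with one start per gene and 7 with peaks of −log10 p of at least 1.3, beside 12.5%, 21.9% and 5.03% of all genes under these settings. Members with peaks in all 6 lists (14) became 7, 8 and 6 under the same settings, beside 10.1%, 18.7% and 3.98%. Members with none (9) became 4 with windows of 3 kb, Itgal, Itgax, Itgb2 and Itgb4 (27.2% of all genes), and 16 with −log10 p of at least 1.3 (48.1%). Members with H3K27ac coverage higher in every list (4) became 8 with 50 kb either side (18.3%) and 4 to 7 with 1 replicate left out, the 7 without H3K27ac replicate 1 (17.8%). The cause was not tested.

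Leaving out 1 replicate gave 21 to 22, 18 to 24, 14 to 18 and 9 to 10 members for the 4 promoter counts and 11 to 16 for higher H3K4me1 coverage. Of 150 differences of coverage at the 15 members without overlap, 138 kept direction and separation, 9 kept separation no longer, and 3 reversed: with −log10 p of at least 1.3, Itgb1 gave −12.6 and Itgav −1.48 percentage points, and with 50 kb either side Lims1 gave 2.92.

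With the replicate block, in which a member counts when higher in all 3 same-numbered pairs (smallest exact p 0.25), 7 members were higher for H3K27ac and 18 for H3K4me1, beside 24% and 17.1% of all genes. Same-numbered lists deviated together with r of −0.08, 0.38 and 0.51 across genes, which are not independent, and lists that share an IgG library with r of 0.38 to 0.51, so the numbers were not taken to pair the samples. A peak is present or absent by a cutoff, so an absent peak at this depth does not show an absent mark.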

Other observations

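Genes with more annotated starts were more often called marked. Of all protein-coding genes with 1 start, 14.5% had peaks in all 6 replicate lists, against 24.1% of those with 2 or 3 starts and 43.1% of those with 4 or more. Among the members the numbers were 3 of 9, 6 of 15 and 5 of 15. The 5 members with 4 or more starts and, counting any start, peaks in all 6 lists were Itgav, Ptk2, Lims2, Tns1 and Fermt2, while Itgal, Itgam, Itgb4 and Tln2, with as many, were without a promoter peak in all 6 lists. These genes were singled out after their values were seen.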
